A study of Mus musculus with 48 samples.

Results

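The long noncoding RNAs described here are *Malat1*, *Neat1*, *Miat*, *Snhg11*, *Kcnq1ot1* and *Rmst*, 6 of the 52636 genes in a table of TPM values (reads scaled by transcript length and by the library's total) from mouse amygdala. They were taken by symbol through their Ensembl identifiers. All mice were female and young adults, and the labels give the strain of both genotypes as C57BL/6NTac-Brd1. Each library was 1 punch of the right amygdala, collected 1 h after a forced swim test and after injections on 2 days. WT mice and litter-matched *Brd1*+/- mice had saline as vehicle, imipramine at 10 mg/kg (IMN) or fluoxetine at 5 mg/kg (FLX), with 8 libraries in each of the 6 groups. The *Brd1*+/- mice carry a germline deletion of part of *Brd1* on 1 allele. *Brd1*, the targeted gene, had means of 32.9 to 36.9 TPM in the 3 WT groups and 23.4 to 26.0 TPM in the 3 *Brd1*+/- groups.

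Many long noncoding RNAs stay in the nucleus, where they take part in splicing, in nuclear bodies or in silencing of neighbouring genes. *Malat1* lies in nuclear speckles, the stores of splicing factors, and *Neat1* is the scaffold of the paraspeckle. *Miat*, also called Gomafu, is a nuclear RNA of neurons that binds splicing factors, and *Snhg11* hosts small nucleolar RNAs in its introns. *Kcnq1ot1* is transcribed from the paternal allele and silences imprinted genes around it, and *Rmst* is a neural RNA that works with the transcription factor SOX2. TPM does not show where in the cell an RNA was.

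The genes lie on 5 chromosomes of GRCm38. *Malat1* (ENSMUSG00000092341, chromosome 19, 5795690 to 5802672) and *Neat1* (ENSMUSG00000092274, chromosome 19, 5824708 to 5845478) are neighbours on the minus strand. *Miat* (ENSMUSG00000097767, chromosome 5, 112213228 to 112229395, minus strand) and *Rmst* (ENSMUSG00000112117, chromosome 10, 92071037 to 92165170, minus strand) are annotated as long intergenic RNAs, as are *Malat1* and *Neat1*. *Kcnq1ot1* (ENSMUSG00000101609, chromosome 7, 143203458 to 143296549, minus strand) is antisense to *Kcnq1* and lies inside it. *Snhg11* (ENSMUSG00000044349, chromosome 2, 158375638 to 158386145, plus strand) is listed as protein-coding in this annotation although it is known as a small nucleolar RNA host.

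The promoter of *Malat1* is shown because *Malat1* was the RNA of this set whose level differed between groups. It is the RefSeq window of 250 bases before to 50 bases after the gene's start (GRCm38.p6, chr19:5802623-5802922, minus strand), and capitals mark matches to TGACG, the core of the cAMP response element, on either strand.
Malat1: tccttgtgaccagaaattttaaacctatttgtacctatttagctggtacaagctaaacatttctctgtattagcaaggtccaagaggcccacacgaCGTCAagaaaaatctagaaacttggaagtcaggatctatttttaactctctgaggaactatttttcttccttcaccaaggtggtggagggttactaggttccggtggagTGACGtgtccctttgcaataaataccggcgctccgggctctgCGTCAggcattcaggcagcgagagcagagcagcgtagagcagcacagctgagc

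The window had 3 such matches, and 20.8% of 32851 promoters of the same length had at least 1. How many of those promoters had 3 or more was not counted. TGACG was picked for the capitals after 5 motifs had been searched on both strands. The full element TGACGTCA, which contains that core, had no match and is in 1.79% of promoters. The TATA box, searched as TATAAA, had none and is in 13.6% of promoters. The GC box, searched as GGGCGG, had none and is in 35.7%, and the CCAAT box had none and is in 37.4%. RefSeq promoters were found for 4 of the 6 genes, and *Neat1* and *Rmst* had no entry. A match is a description of these letters and not of a bound factor.

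The 6 RNAs spanned the range of expression. *Snhg11* had a mean of 1403 TPM over the 48 libraries and the 36th highest mean of all genes. *Malat1* was 238th with 370.3 TPM and *Miat* 701st with 191 TPM. *Neat1* had 33.8 TPM and *Rmst* 17.6 TPM. *Kcnq1ot1*, with 0.954 TPM spread over 93092 exonic bases, was ranked 19374th and was not abundant on this scale.

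**Figure D1:**
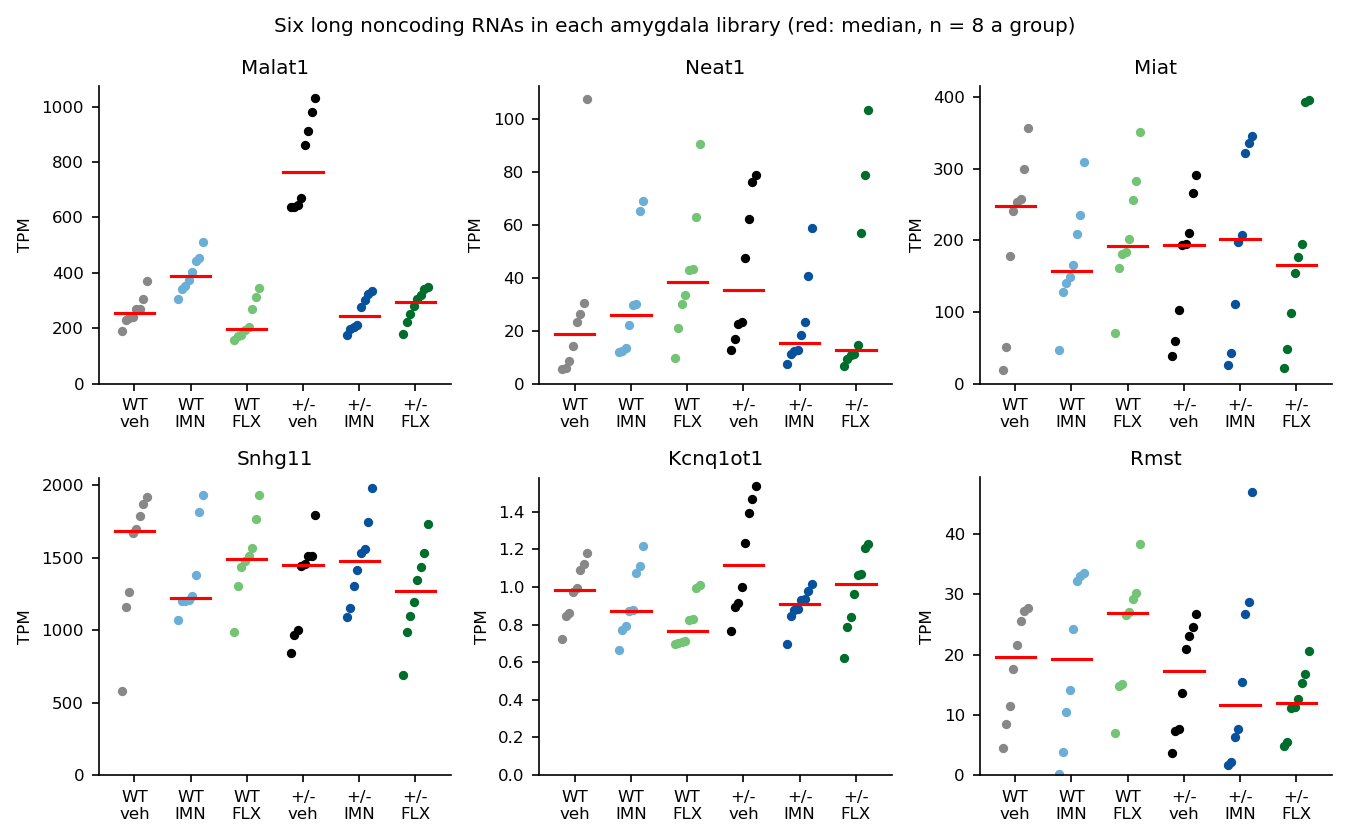
TPM (linear axis from 0) of each of the 6 RNAs in each library, by group (WT or +/- for *Brd1*+/-, with vehicle, IMN or FLX), with the median as a red line. The 8 *Brd1*+/- vehicle libraries sit at 637 to 1031 TPM for *Malat1*, above every other library, whereas the groups overlap in the other 5 panels.

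*Malat1* was about 3 times as high in *Brd1*+/- as in WT vehicle mice, and no other of the 6 RNAs passed the test in any comparison. In WT vehicle mice *Malat1* had 190 TPM at the lowest, 255 TPM at the median and 372 TPM at the highest. In *Brd1*+/- vehicle mice it had 637, 765 and 1031 TPM. The groups did not overlap, as was so for 0.453% of the 24279 genes tested. The means were 797 ± 168 and 264 ± 55.0 TPM (SD, n = 8 each). Limma on log2(TPM + 0.1) gave a difference of 1.59 ± 0.14 (SE; Benjamini-Hochberg adjusted p = 1.15e-05 over all genes). All log2 differences here are on that scale. An exact permutation test of the 8 against 8 values gave p = 0.000155, the smallest that 12870 arrangements allow (two-sided; adjusted over 9 comparisons, 0.000465). In this comparison 0.708% of genes were called, that is, had an adjusted p under 0.05, and 1 of the 6 RNAs was. Of the genes called, 167 were higher in *Brd1*+/- mice and 5 lower, so the direction of *Malat1* was that of most. The sample codes of vehicle mice were split here into a lower and a higher range, a cut that the labels do not mark. *Malat1* was higher by 1.52 within the lower range (3 against 3 libraries) and by 1.63 within the higher range (5 against 5).

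Both drugs went with a lower *Malat1* in *Brd1*+/- mice. *Malat1* was at 176, 245 and 335 TPM (lowest, median, highest) in *Brd1*+/- IMN mice and at 180, 293 and 349 TPM in *Brd1*+/- FLX mice. Neither drug group overlapped the *Brd1*+/- vehicle group, as was so for 0.466% of genes with IMN and 0.505% with FLX. With IMN the mean was 253 ± 62.9 TPM, and *Malat1* fell by 1.66 on the log2 scale (SE 0.16, limma adjusted p = 1.71e-05; 0.776% of genes called). With FLX it was 281 ± 59.7 TPM, and *Malat1* fell by 1.51 (SE 0.15, limma adjusted p = 3.7e-05; 0.731% called). Most genes called went down as *Malat1* did, 184 lower and 4 higher with IMN, and 175 lower and 3 higher with FLX. These comparisons share the *Brd1*+/- vehicle libraries with the genotype comparison and are not independent of it. Sample codes of vehicle and drug mice lay in separate ranges, so drug and code range cannot be told apart.

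In WT mice no drug difference of *Malat1* passed the test over all genes. WT IMN mice had 305, 388 and 513 TPM and a mean of 398 ± 68.5 TPM, and WT FLX mice had 159, 198 and 344 TPM and a mean of 228 ± 70.6 TPM (SD, n = 8 each). All 8 WT IMN libraries were above the WT vehicle median, with some overlap. The log2 difference of IMN against vehicle was 0.60 ± 0.13, which did not pass over all genes (limma adjusted p = 0.627, unadjusted 0.000308; 0 genes called, 1084 with an unadjusted p under 0.05). The exact permutation test of *Malat1* alone gave p = 0.00109 (adjusted over 9 comparisons, 0.00164). Here and in the other exact tests, that adjustment covers comparisons of *Malat1* only. It leaves out that *Malat1* was chosen with earlier results of these data known. FLX against vehicle differed by -0.24 ± 0.17 (limma adjusted p = 0.51; 0.335% called).

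Between WT FLX and WT IMN mice the log2 difference of *Malat1* was -0.84 ± 0.16, the smallest p of all 23501 genes in this comparison, and did not pass (limma adjusted p = 0.858; 0 genes called, 1123 with an unadjusted p under 0.05). The exact permutation p for *Malat1* was 0.000932 (adjusted over 9, 0.00164). The sample codes of drug mice were also split here into a lower and a higher range. Within the lower range the difference was -0.30 (3 against 4 libraries) and within the higher range -1.19 (5 against 4). *Brd1*+/- FLX and IMN mice differed by 0.16 ± 0.17 (limma adjusted p = 1).

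Between genotypes given the same drug, no *Malat1* difference passed over all genes. With IMN the log2 difference of *Brd1*+/- against WT mice was -0.67 ± 0.15, and all 8 *Brd1*+/- libraries lay under the WT IMN median (limma adjusted p = 0.53, exact permutation p = 0.000777, adjusted over 9, 0.00164; 0.017% of genes called). With FLX the difference was 0.33 ± 0.18 (limma adjusted p = 0.38; exact permutation p = 0.109; 1.54% called). It was -0.17 within the lower code range (5 against 3) and 0.63 within the higher (3 against 5). The genotype difference itself changed with the drug. The interaction of genotype with IMN was -2.26 ± 0.21 (limma adjusted p = 3.29e-08; 0.536% of genes called) and that with FLX -1.26 ± 0.23 (limma adjusted p = 0.0034; 1.71% called).

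From the lowest mean to the highest, the order for *Malat1* was WT FLX, *Brd1*+/- IMN, WT vehicle, *Brd1*+/- FLX, WT IMN and *Brd1*+/- vehicle. Each group except the last overlapped its neighbour in this order.

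The 7SL copies *Rn7s1* and *Rn7s2*, RNAs of the signal recognition particle, were also highest in *Brd1*+/- vehicle mice. Their summed level was 132.2 to 245.7 TPM in *Brd1*+/- vehicle mice and 2.24 to 20.7 TPM in the other 5 groups. Oligodendrocyte markers summed to 2338 to 16428 TPM in *Brd1*+/- vehicle mice and 676 to 11090 TPM in WT vehicle mice, with 0 of 8 called and a median log2 difference of 1.51 (all genes, 0.03). Their highest median sum over the 6 groups was 5771 TPM in WT FLX mice, the group with the lowest *Malat1* mean. In *Brd1*+/- vehicle mice, the group with the highest *Malat1* mean, the median sum was 5595 TPM. The highest mean sum was 7417 TPM in *Brd1*+/- vehicle mice, with 5564 TPM in WT FLX mice. Excitatory forebrain neuron markers summed to 283 to 1385 TPM in *Brd1*+/- and 410 to 2652 TPM in WT vehicle mice, with 0 of 6 called, 0 of 6 above 0 and a median log2 difference of -1.30. Marker sums varied widely in every group. Striatal projection neuron markers, of a region beside the amygdala, ran from 130.3 to 7996 TPM, and choroid plexus markers from 9.49 to 29674 TPM. With the scores of oligodendrocyte, striatal, and thalamic and hypothalamic markers as terms, the *Malat1* genotype difference in vehicle mice was 1.45 ± 0.13 (limma adjusted p = 0.000117). It was 1.42 ± 0.14 (limma adjusted p = 0.000436) with the excitatory score as a further term. In bulk tissue, fewer cells of a type and less RNA per cell cannot be told apart. The part of the 7SL copies in the result was not tested.

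**Figure D2:**
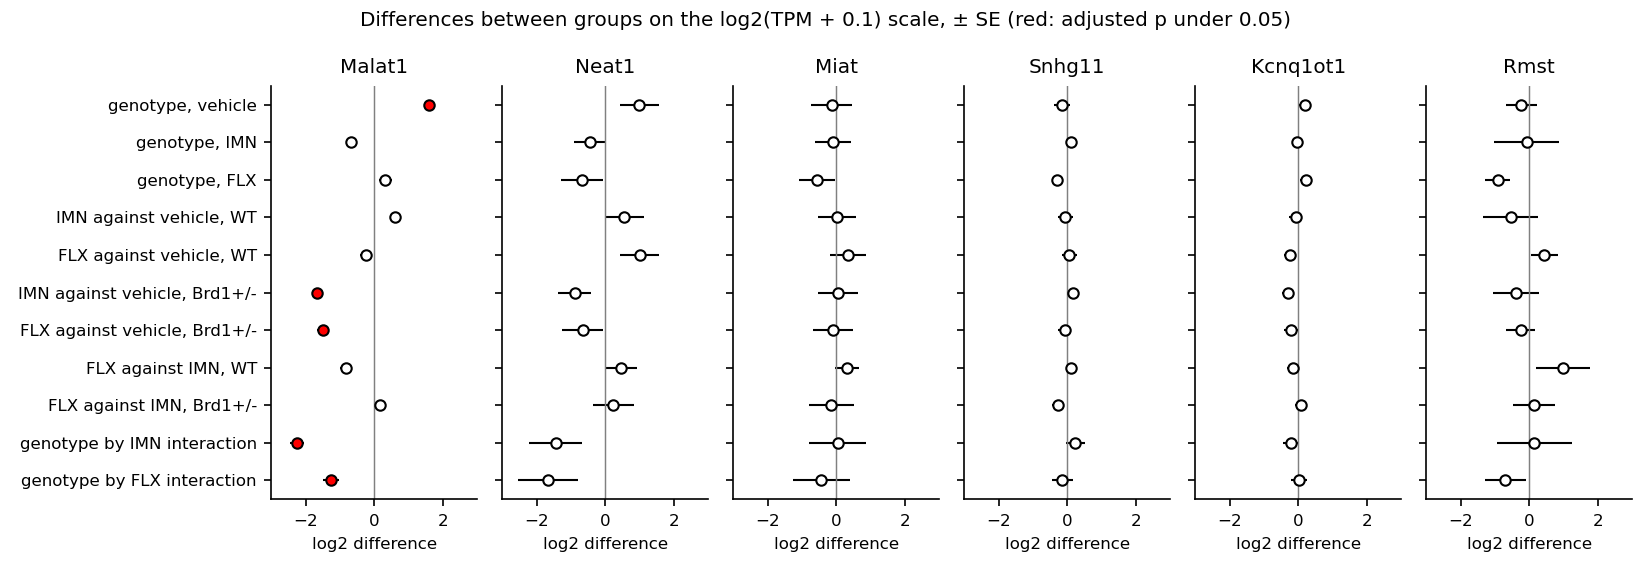
Log2 difference (x axis, log2(TPM + 0.1) scale) of each RNA in 11 comparisons (rows), with bars of 1 SE. Red points have a limma adjusted p under 0.05, and they are 5 of 11 for *Malat1* and 0 of 55 for the other 5 RNAs.

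Among the other 5 RNAs, 0 of 55 limma tests (5 RNAs in 11 comparisons) had an adjusted p under 0.05. Over all genes 0% to 1.71% were called in these comparisons, so a count of 0 is near the background. *Neat1* varied widely within groups, with coefficients of variation of 60.7% to 121.2%. It had 5.31, 18.8 and 107 TPM (lowest, median, highest) in WT vehicle and 12.8, 35.4 and 78.7 TPM in *Brd1*+/- vehicle mice, and the groups overlapped. The log2 difference was 0.99 ± 0.58 (limma adjusted p = 0.694), and it was -0.35 (adjusted p = 0.985) with the 3 cell type scores as terms. The *Neat1* change nearest to the threshold was the interaction of genotype with FLX, -1.67 ± 0.87 (unadjusted p = 0.0623, limma adjusted p = 0.328).

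*Rmst* was the nearest of the 5 to a call. WT FLX mice had 7.03, 26.9 and 38.4 TPM. *Brd1*+/- FLX mice had 4.82, 12.02 and 20.5 TPM, with overlap. The log2 difference was -0.92 ± 0.35 (unadjusted p = 0.0189, limma adjusted p = 0.195). Of 7 thalamic and hypothalamic neuron markers tested in this comparison, 0 had a log2 difference above 0, and the median was -2.55 (all genes, -0.06). The 2 called were *Lhx5* (log2 difference -4.23, limma adjusted p = 0.0284) and *Fezf1* (-3.99, adjusted p = 0.0322), transcription factors of the developing forebrain and hypothalamus. Over all genes 1.54% were called. The marker list summed to 34.0 to 234 TPM in WT FLX and 7.90 to 44.8 TPM in *Brd1*+/- FLX mice. The score of this list is among the cell type scores, and with these as terms *Lhx5* (-0.52) and *Fezf1* (-0.40) were no longer called (limma adjusted p = 0.963 and 0.972). Both genes are part of the list behind that score, so a smaller difference was built into this fit.

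*Miat* ran from 19.1 to 397 TPM over all 48 libraries. Its group means lay between 170 and 211 TPM with SDs of 78.9 to 142.3 TPM, and its smallest p was for genotype with FLX (-0.56 ± 0.52, unadjusted p = 0.296, limma adjusted p = 0.639). That difference was -0.19 without *Brd1*+/- FLX replicate 2 and -0.78 without *Brd1*+/- FLX replicate 1. *Snhg11* ran from 582 to 1984 TPM, with group means of 1253 to 1498 TPM, and its smallest p was also for genotype with FLX (-0.28 ± 0.17, unadjusted p = 0.12, limma adjusted p = 0.44), and that difference was -0.17 without *Brd1*+/- FLX replicate 4. *Kcnq1ot1* ran from 0.625 to 1.54 TPM, with group means of 0.809 to 1.15 TPM, and its smallest p was for IMN against vehicle in *Brd1*+/- mice (-0.30 ± 0.18, unadjusted p = 0.123, limma adjusted p = 0.679). The SE was 0.83 for *Miat* and 1.08 for *Rmst* in the interaction with IMN, so small differences were not detectable.

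Genes that work with these RNAs or lie near them gave 0 or 1 call in each list, near the share over all genes for lists of this size. Of 24 paraspeckle proteins and 22 nuclear speckle and SR proteins, 0 were called in any of the 11 comparisons, in which 0% to 1.71% of all genes were. Of 16 genes listed beside *Malat1* and *Neat1* on chromosome 19, only *Ltbp3*, which encodes a binding protein of latent TGF-beta, was called. It was lower in *Brd1*+/- FLX than in WT FLX mice (19.8 ± 8.35 against 38.5 ± 8.66 TPM, log2 difference -1.02 ± 0.21, limma adjusted p = 0.0292). Of 12 genes listed for the *Kcnq1* imprinted cluster, only *Osbpl5*, an oxysterol-binding protein gene, was called, in the same comparison (32.0 ± 7.54 against 51.8 ± 11.96 TPM, -0.69 ± 0.17, limma adjusted p = 0.0464). In that comparison 1.54% of all genes were called. With the cell type scores as terms 0 of 23635 genes were, and the differences were -0.53 for *Ltbp3* and -0.24 for *Osbpl5* (limma adjusted p = 0.847 and 0.86). The targeted gene *Brd1* also lost its call there, going from -0.49 (limma adjusted p = 0.0362) to -0.28 (adjusted p = 0.863). For genotype with IMN, *Brd1* was called with these terms (-0.72, limma adjusted p = 0.00365). Why calls were lost in the FLX comparison was not tested.

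Of 32 other long noncoding RNAs tested, *Peg13*, an imprinted RNA, was called, again for genotype with FLX (113 ± 16.4 against 174 ± 26.1 TPM, -0.62 ± 0.11, limma adjusted p = 0.0138). Its interaction of genotype with FLX was -0.73 ± 0.15 (limma adjusted p = 0.00901). With the cell type scores as terms neither was called, at -0.25 (limma adjusted p = 0.856) and -0.37 (adjusted p = 0.563). The other genes of that list were not called in any comparison. Of the 10 cell type marker lists, the 2 hypothalamic genes above and the pan-neuronal *Tubb3*, a neuronal tubulin gene, were the genes called, *Tubb3* also for genotype with FLX (288 ± 47.5 against 408.3 ± 49.9 TPM, -0.51 ± 0.11, limma adjusted p = 0.0328). *Tubb3* was not called with the cell type scores as terms (-0.25, limma adjusted p = 0.879).

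Whether an RNA moved with *Malat1* was asked from library to library, after each library's group mean had been taken off. *Rmst* was the one that did, in the opposite direction. Pearson's r was -0.45 and Spearman's rho -0.46 over 48 libraries (permutation within groups, two-sided, p = 0.00086 and 0.00151, adjusted over 5 RNAs 0.0043 and 0.00755), and r was -0.48 without the 2 libraries farthest in *Malat1*. The slope was -1.90 ± 0.56 log2 units of *Rmst* per log2 unit of *Malat1* (limma adjusted p = 0.0171), and r was below 0 in 6 of 6 groups (-0.85 to -0.10). Following *Malat1* was common, however, with 16.5% of 27943 genes called and 11.4% in the negative direction.

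For *Neat1*, the chromosomal neighbour, r with *Malat1* was 0.0053 and rho -0.0084 (permutation p = 0.973 and 0.957, adjusted over 5 0.973 and 0.957). It was 0.15 without the 2 farthest libraries. Within single groups it ran from -0.85 in WT IMN to 0.88 in WT vehicle mice (exact permutation p = 0.00928 and 0.00521). Neither passed over the 30 such correlations (adjusted p = 0.119 for both).

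The remaining 3 RNAs did not pass in either test. *Miat* had r = -0.28 and rho -0.25 (permutation p = 0.0617 and 0.0969, adjusted over 5 0.147 and 0.162) and *Snhg11* r = -0.25 and rho -0.26 (0.0883 and 0.0761, adjusted 0.147 and 0.162). Without the 2 farthest libraries r was -0.39 for *Miat* and -0.44 for *Snhg11*. *Kcnq1ot1* had r = 0.12 and rho 0.064 (permutation p = 0.422 and 0.667, adjusted 0.527 and 0.834), and -0.030 without those libraries.

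**Figure D3:**
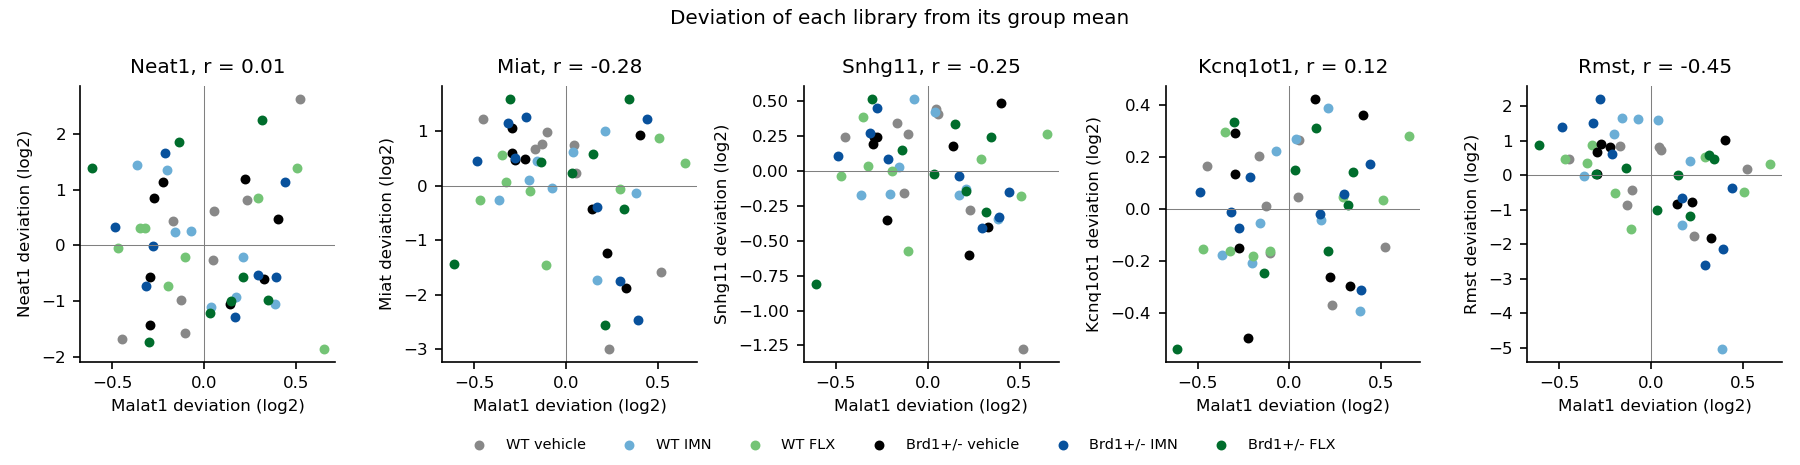
Deviation of each of the 48 libraries from its group mean on the log2 scale, for *Malat1* (x axis) and each other RNA (y axis), coloured by group. *Rmst* slopes down (r = -0.45), and *Neat1* has no slope (r = 0.0053).

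The genes most like *Malat1* within groups, among 13848 genes with a mean of at least 5 TPM, were *Sntb2* (r = 0.67, rho 0.66), a syntrophin gene, the kinase gene *Akt2* (0.65, 0.61) and the postsynaptic scaffold gene *Dlgap2* (0.65, 0.65). The most opposed were *Chmp4b* (r = -0.73, rho -0.73), of the membrane-remodelling complex ESCRT, *Gm16437* (-0.73, -0.73), a processed pseudogene, and *Clcn6* (-0.73, -0.72), a chloride and proton exchanger gene. These 6 were picked by r in the same libraries, so passing the fit over all genes (limma adjusted p = 0.000323 to 0.000681) is no separate support. In that fit 16.5% of 27943 genes were called, and 1 of 27943 was with cell type scores as further terms.

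The RNAs followed different cell type markers. *Neat1* rose with oligodendrocyte markers, of which 8 of 8 were called positive (median r = 0.75; *Neat1* calls over all genes, 18% of 27943, 12.5% positive), and 4 of 7 pan-neuronal markers were called negative (5.55% of all genes). *Snhg11* and *Kcnq1ot1* went the other way, with 8 of 8 oligodendrocyte markers negative (median r = -0.43 and -0.52; 7.61% and 4.3% of all genes negative). *Miat*, *Snhg11* and *Rmst* were opposed to 7 of 7 striatal markers (median r = -0.80, -0.49 and -0.70; 7.94%, 7.61% and 9.07% negative). *Malat1* went with 5 of 7 striatal markers (median r = 0.44, with 5.18% of all genes positive). It went against 6 of 8 thalamic and hypothalamic markers (median r = -0.47, with 11.4% of all genes negative). *Rmst* rose with 7 of those 8 (median r = 0.72, with 29.3% of all genes positive).

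With the oligodendrocyte, striatal, and thalamic and hypothalamic scores as further terms, added after seeing the data, *Rmst* no longer moved with *Malat1*. Its slope was 0.15 ± 0.42 (limma adjusted p = 0.962). Genes that followed *Malat1* dropped from 4623 to 1 of 27943 (0.00358%), and 0 of the 5 RNAs were called. The *Neat1* slope on *Malat1* was 0.019 ± 0.55 without these terms. With them it was 1.04 ± 0.37, and it was not called (limma adjusted p = 0.542).

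**Figure D4:**
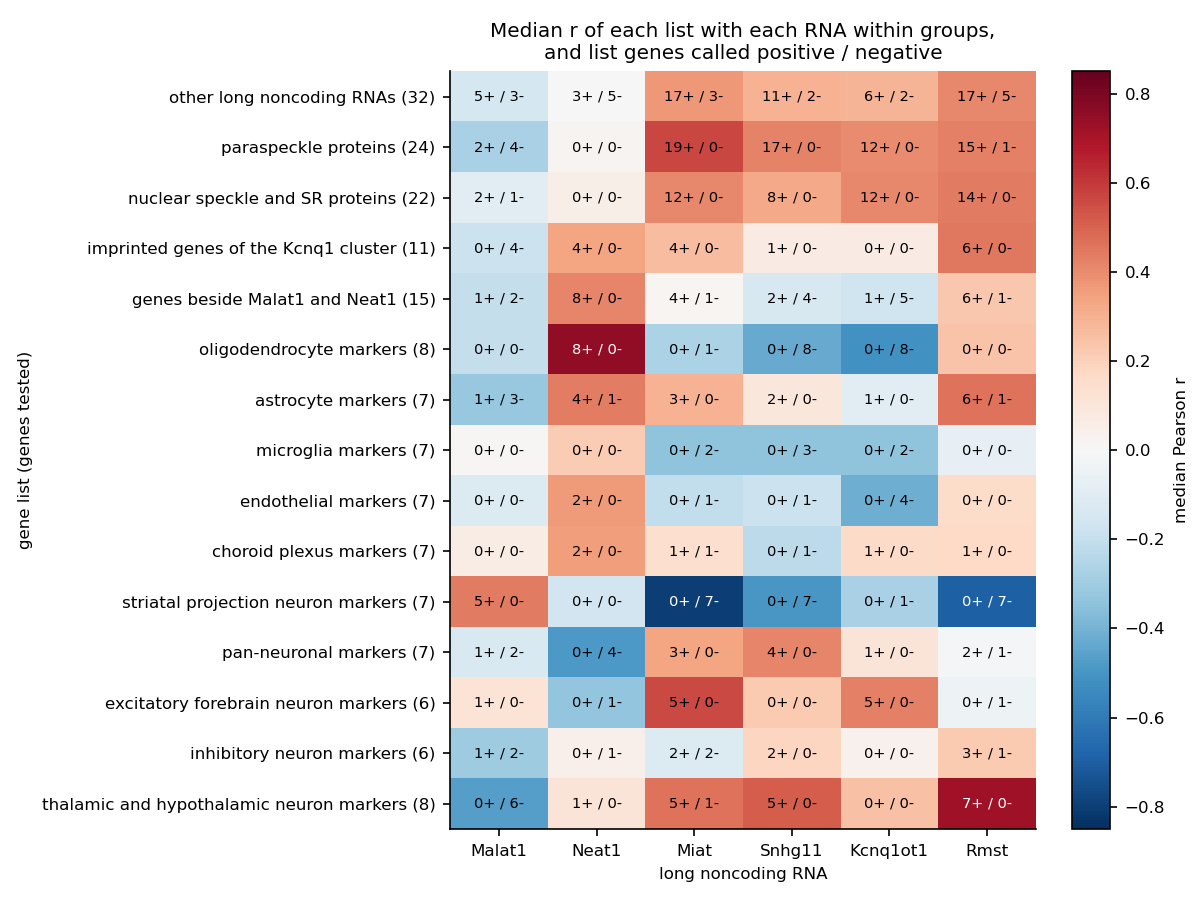
Median Pearson r (colour) of each fixed gene list (rows, genes tested in brackets) with each RNA (columns) after the group means were removed, and how many list genes were called positive and negative. *Neat1* stands with oligodendrocyte markers, and *Miat* and *Rmst* against striatal ones.

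Several pairs among the other 5 RNAs moved together. *Miat* and *Snhg11* had r = 0.65 (limma adjusted p = 1.53e-05 with *Miat* as the covariate), *Snhg11* and *Kcnq1ot1* 0.63 (0.00287 with *Snhg11* as the covariate), *Miat* and *Kcnq1ot1* 0.55 (0.00801, *Miat*) and *Miat* and *Rmst* 0.52 (0.00101, *Miat*). *Snhg11* and *Rmst* had r = 0.46 (0.00847, *Snhg11*), and *Neat1* and *Snhg11* were opposed at -0.42 (0.0281, *Neat1*). Of all 27943 genes, 37.6% were called with *Miat*, 28% with *Snhg11*, 20.4% with *Kcnq1ot1* and 38.3% with *Rmst*. All these values come from the same 48 libraries.

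A short RNA annotated inside *Neat1* was high where *Neat1* was high. *Gm27505* (ENSMUSG00000098974, chromosome 19, 5844638 to 5844747, 110 bases, same strand) was at 93.7 to 735 TPM in 16 libraries and at 2.18 to 7.19 TPM in the other 32. The 16 were those with *Neat1* at 40.7 TPM or more, and *Neat1* was at most 33.5 TPM in the rest. Those libraries fell in every group, 1 in WT vehicle, 2 in WT IMN, 4 in WT FLX, 4 in *Brd1*+/- vehicle, 2 in *Brd1*+/- IMN and 3 in *Brd1*+/- FLX mice. How the reads of the shared bases were assigned is uncertain, and so is the *Neat1* level above this step.

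**Figure D5:**
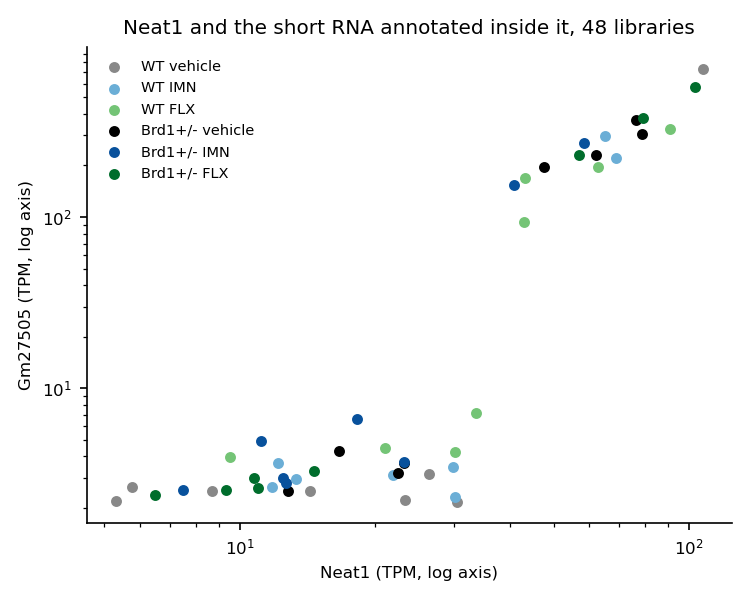
TPM of *Neat1* (x axis, log) and of *Gm27505* inside it (y axis, log) in each library, coloured by group. *Gm27505* is at 7.19 TPM or less up to a *Neat1* of 33.5 TPM and at 93.7 TPM or more from 40.7 TPM.

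*Malat1* had no such step. *Gm27694*, a short RNA inside it on the same strand (5799000 to 5799085, 86 shared bases), had group means of 2.57 to 3.01 TPM and a log2 difference of 0.03 between genotypes in vehicle mice (limma adjusted p = 0.978). *Gm37376*, antisense to *Malat1*, was listed at 0 in all 48 libraries.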

How the data were processed

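Amygdala punches of 48 mice (6 groups of 8) were measured by RNA-seq (50 bp single-end, TruSeq, HiSeq2000). The TPM values were deposited by the authors, who per the study's methods aligned reads to GRCm38 with HISAT2 2.1.0 and counted with StringTie 1.3.4 (FastQC and Trimmomatic are also named in the submitters' processing notes). Strand use and poly(A) selection are not given in the sources used here, which matters because *Malat1* and the long form of *Neat1* lack an ordinary poly(A) tail and some genes overlap. TPM columns sum to 999523 to 999772, and a rise in some genes lowers the rest. The paper states a minimum of reads per sample but not the depth of each library, so no detection limit was computed. Each library is 1 mouse per the study's methods.

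Symbols and coordinates came from GENCODE M21, where 52489 of 52636 identifiers (99.7%) were found. Groups, doses, replicate numbers and sample codes came from the labels, but the split of the codes into a lower and a higher range did not. Values were tested with limma 3.58.1 (R 4.3.3) on log2(TPM + 0.1), with genes of at least 0.1 TPM in at least 8 samples, a mean-variance trend and Benjamini-Hochberg adjustment, on the groups compared alone. Moving with a member was tested by adding its log2 level to the 6 groups. Exact and 100000-resample permutations, figures and promoters used Python 3.11.15 and SciPy. The steps were tested on simulated data. Named genes were the members, *Brd1*, the 3 genes most and least like *Malat1*, and list genes called (up to 3 a direction). *Gm27505*, *Gm27694*, *Gm37376*, *Rn7s1* and *Rn7s2* were named after their values were seen. Members and lists were chosen with earlier results of these data known. Other pseudocounts, filters, scalings, fits and left-out libraries were tried, and cell type scores, and the fits with other members as covariates, were added after seeing the data.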

Additional observations from a re-analysis of the deposited data

Results flagged for a closer look

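*Malat1* was flagged because its genotype difference changed with each drug: the interaction with IMN was -2.26 and that with FLX -1.26 on the log2 scale (limma adjusted p = 3.29e-08 and 0.0034). The 8 vehicle libraries of each genotype enter both values. The highest *Neat1* value of the WT vehicle group, 107 TPM in replicate 1, lay far from the next, 30.5 TPM, with a gap of 0.753 of the group's range. Of 36 groups of 8 values (6 RNAs in 6 groups) it was the 1 beyond Dixon's 95% critical value, and chance flags about 1 in 20. The same library was the 1 of its group with a high *Gm27505* (735 TPM), where the *Neat1* level is uncertain. It also had the lowest *Snhg11* value of all 48, 582 TPM.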

How the results depend on the processing

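The count of members called was the same in each comparison under each alternative, except 1 for genotype with IMN when cell type scores were terms (*Malat1*, -0.72, and -0.73 with the excitatory score added). *Malat1* kept its 5 calls under each alternative and without each library in turn: genotype in vehicle mice ran from 1.42 to 1.61 and 1.53 to 1.66, IMN against vehicle in *Brd1*+/- mice from -1.69 to -1.64 and -1.73 to -1.59, and FLX against vehicle from -1.65 to -1.47 and -1.55 to -1.42. The interaction with IMN ran from -2.28 to -2.24 and -2.34 to -2.19, and that with FLX from -1.52 to -1.17 and -1.34 to -1.17. The other 5 RNAs had 0 calls in every setting, with a lowest adjusted p of 0.0672 (*Rmst*, genotype with FLX, 1 library left out). Members moving with *Malat1* were 2 (*Rmst* and *Miat*) under median-ratio scaling and when rescaled to multi-exon protein-coding genes, 3 (with *Snhg11*) in 46 libraries without the 2 farthest, and 0 with cell type scores. Of the values printed, those that turned sign with cell type scores were *Malat1* genotype with FLX (-0.14, and -0.12 with the excitatory score added), *Neat1* genotype in vehicle mice (-0.35), *Rmst* genotype with FLX (0.24), *Malat1* FLX against IMN in *Brd1*+/- mice (-0.099, and -0.097), the *Neat1* interaction with FLX (0.27), and the slopes on *Malat1* of *Miat* (0.18), *Snhg11* (0.016) and *Rmst* (0.15). The *Neat1* slope turned to -0.047 with the replicate block, -0.21 with the code range and -0.029 in the 40 libraries outside *Brd1*+/- vehicle, and the *Kcnq1ot1* slope to -0.044 in 46 libraries. *Gm27694* in vehicle mice turned to -0.074 under quantile normalization and ran from -0.022 to 0.083 with 1 library left out. None was called under the setting that turned it, of these values only the *Rmst* slope was called as reported, and the cause was not tested. Of the 7 calls of list genes (*Lhx5*, *Fezf1*, *Ltbp3*, *Osbpl5*, *Tubb3* and both of *Peg13*), 0 held with cell type scores, 1 (the *Peg13* interaction) with the replicate block, and 2 (both of *Peg13*) with the code range as a term and in 1 fit of all 48 libraries. *Lhx5* and *Fezf1* are themselves in the list behind the thalamic and hypothalamic score, so their loss with it is no separate test. The call of the targeted gene *Brd1* for genotype with FLX was lost with cell type scores too. Replicate numbers gave no steady pairing of the mice (1 to 5 of 8 same-numbered pairs had a correlation over 0.1). The median r of same-numbered pairs was highest for IMN against vehicle in *Brd1*+/- mice, 0.152 against -0.0216 for other pairs. It was lowest for FLX against vehicle in WT mice, -0.102 against -0.0057. With replicate numbers as a block the *Malat1* difference in vehicle mice was 1.59 (limma adjusted p = 0.00252), and the same number of members was called in every comparison. Depth is not known from TPM, so the counting error of low values such as *Kcnq1ot1* cannot be given.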
